A study of Homo sapiens with 6 samples.

Results

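The aldo-keto reductases are NADPH-dependent enzymes that reduce aldehydes and ketones to alcohols. The 10 genes described here are AKR1A1, AKR1B1, AKR1B10, AKR1B15, AKR1C1, AKR1C2, AKR1C3, AKR1C4, AKR7A2 and AKR7A3. They were taken by symbol, a rule that uses no measured value, although the family was chosen with earlier results of these data known. All 10 were found among the 57781 rows of the count table. RNA was sequenced from A549, an established line of human lung adenocarcinoma cells, in 3 libraries carrying an empty vector (labelled WT) and 3 libraries in which METTL3 was knocked down with short hairpin RNA (shMETTL3). METTL3 is the catalytic subunit of the enzyme complex that writes N6-methyladenosine (m6A) on mRNA. Both groups were grown in the same serum-supplemented medium, and by the methods the hairpins were made from small interfering RNA sequences cloned into a plasmid. The titles number the libraries of a group as replicates, while the knockdown columns are numbered sh1 to sh3, and whether these stand for separate hairpins, cultures or extractions is not given in the sources used here. The p-values therefore measure the spread between these libraries, which may be technical.

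The family divides the work of carbonyl reduction by substrate. AKR1A1 (aldehyde reductase) and AKR1B1 (aldose reductase) handle sugars and small aldehydes, and AKR1B1 makes sorbitol from glucose in the polyol pathway. AKR1B10 and AKR1B15 act on retinaldehyde and lipid aldehydes. The AKR1C enzymes are hydroxysteroid dehydrogenases that also reduce prostaglandins, and the AKR7A enzymes reduce dialdehydes, including one formed from aflatoxin. In lung cancer cells with a defective KEAP1, of which A549 is the standard example, the transcription factor NRF2 (gene NFE2L2) escapes degradation and keeps AKR1B10 and several AKR1C genes at high levels.

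METTL3 itself was measured first. Its normalised level, in CPM (counts scaled to a common library size by the TMM factors of edgeR), was 49.9 ± 0.676 (SD, n = 3) in the vector libraries and 19.4 ± 0.525 (SD, n = 3) in the shMETTL3 libraries. The difference was -1.36 on the log2 scale, with a standard error (SE) of 0.0673. The quasi-likelihood test of edgeR gave an adjusted p = 4.57e-16 (Benjamini-Hochberg over all tested genes). This test was used for every adjusted p below unless another is named. The libraries held between 14931426 and 19108928 counts, so that 3 counts, taken as the floor, stood at 0.150 to 0.189 CPM. Counting error alone enters these limits. All 8 markers of the A549 epithelium that were listed were expressed, and all 8 changed, 6 of them lower. Of all tested genes, 66.6% changed and 32.9% were lower. The summed level of the 8 markers was 10000 to 10700 CPM in the vector libraries, against 5230 to 5680 CPM in the shMETTL3 libraries. The sum of 6 leukocyte markers lay at 0.78 to 1.47 CPM in the vector libraries, against 7.18 to 8.38 CPM in the shMETTL3 libraries. Of these, 2 genes, CD14 and ITGAM, were tested and both were higher. They passed the filter on low counts only through the shMETTL3 libraries, so this direction was close to fixed by the filter. Their vector counts were 6, 5 and 16 for CD14 and 8, 8 and 7 for ITGAM. PTPRC and CD3E never exceeded 1 count. The 4 endothelial markers found summed to 0 to 0.184 and 1.45 to 2.02 CPM, with VWF at 0 in every library. CDH5 alone was tested and was higher, with 0, 0 and 2 counts in the vector libraries. It too passed the filter only through the shMETTL3 libraries. The 7 fibroblast markers summed to 6.74 to 9.99 and 14.4 to 14.9 CPM, with 1 of 2 tested genes higher. Whether these shifts have a part in the changes below was not tested. In bulk libraries, fewer cells of one kind and less RNA per cell cannot be told apart.

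The members lie in gene clusters of close relatives, and this bears on how well short reads can be assigned to them. In hg19, which has the coordinates of GRCh37, AKR1C1 (plus strand, chr10:5005445-5025475), AKR1C2 (minus strand, chr10:5029967-5060223), AKR1C3 (plus strand, chr10:5077546-5149878) and AKR1C4 (plus strand, chr10:5237425-5260912) form a cluster of 255.5 kb on chromosome 10. AKR1B1 (minus strand, chr7:134127108-134144036), AKR1B10 (plus strand, chr7:134212319-134226164) and AKR1B15 (plus strand, chr7:134233862-134264627) lie within 137.5 kb on chromosome 7. AKR7A3 (chr1:19609067-19615264) and AKR7A2 (chr1:19630459-19638638) are neighbours on the minus strand of chromosome 1, and AKR1A1 (plus strand, chr1:46016215-46035721) stands alone on the same chromosome. All 10 are protein-coding genes in the GENCODE annotation.

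The coding sequence of the AKR1C genes is 972 bases long in each of the 4 canonical transcripts. AKR1C1 and AKR1C2 differ at 19 of these bases and are 98.0% identical, whereas AKR1C3 is 91.5% and AKR1C4 88.5% identical to AKR1C1. The following stretch of the reference transcripts, coding bases 85 to 114 counted from the A of the start codon, is shown because it is one where all 4 differ, with capitals at the bases that differ from AKR1C1.
AKR1C1: gttcctaaaagtaaagctttagaggccacc
AKR1C2: gttcctaaaagtaaagctCtagaggccGTc
AKR1C3: gttccGaGaagtaaagctttGgaggTcacA
AKR1C4: gttccGaGGaACaGagctGtagaggTcacc
Here AKR1C2 differs at 3 bases, AKR1C3 at 5 and AKR1C4 at 8. Of all 100-base stretches in the canonical transcript, 27.76% in AKR1C2, 12.65% in AKR1C1, 7.82% in AKR1C3 and 0.55% in AKR1C4 also occur in a transcript of another gene named AKR. The read length and the treatment of reads that map to several places are not given in the sources used here, so the split of counts between AKR1C1 and AKR1C2 is the least certain.

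The AKR1B genes were compared in the same way, with gaps counted as differences. AKR1B10 is 85.1% identical to AKR1B15 over the coding sequence, with 70 substitutions and 84 gap bases. It is 76.1% identical to AKR1B1, with 220 substitutions and 8 gap bases. For comparison, AKR1C1 and AKR1C3 differ at 83 bases without gaps. A stretch from coding base 58 of AKR1B10 was chosen to hold as many differences from AKR1B15 as a limit of 10 allowed. It is set beside the closest stretches of AKR1B15 (coding bases 142 to 171) and AKR1B1 (58 to 87). AKR1B15 differs at 10 bases and AKR1B1 at 9, so the stretch does not show the distance over the whole coding sequence. Capitals mark the bases that differ from AKR1B10.
AKR1B10: acttggaagtctcctcttggcaaagtgaaa
AKR1B15: TAtCCAGCAtctcTtctCggcaaagtgaaa
AKR1B1: acCtggaagtcCcctcCAggGCaGgtgaCT
The shares of 100-base stretches found in another AKR gene were 1.97% for AKR1B10, 1.1% for AKR1B15 and 0% for AKR1B1. AKR7A2 and AKR7A3 are 84.6% identical, with 82 substitutions and 84 gap bases. Their shares were 0.4% and 15.05%, and for AKR1A1 the share was 0%.

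Between the vector and shMETTL3 libraries the family moved in both directions. Of the 10 members, 9 had enough counts to be tested, and each of these 9 passed at an adjusted p of 0.05, with AKR1B1, AKR1B15, AKR1C1, AKR1C2 and AKR1C4 higher and AKR1A1, AKR1B10, AKR1C3 and AKR7A2 lower in the shMETTL3 libraries. Changed genes were common in this comparison, at 66.6% of the 15125 tested, with 33.7% higher and 32.9% lower. Only AKR1B1 and AKR1B15 among the members changed by at least 1 on the log2 scale, which 17.6% of all tested genes did. The groups did not overlap for any of the 9 tested members, which also held for 69.4% of all tested genes. The median log2 fold change was 0.21 over the 9 members and 0.0022 over all tested genes.

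**Figure D1:**
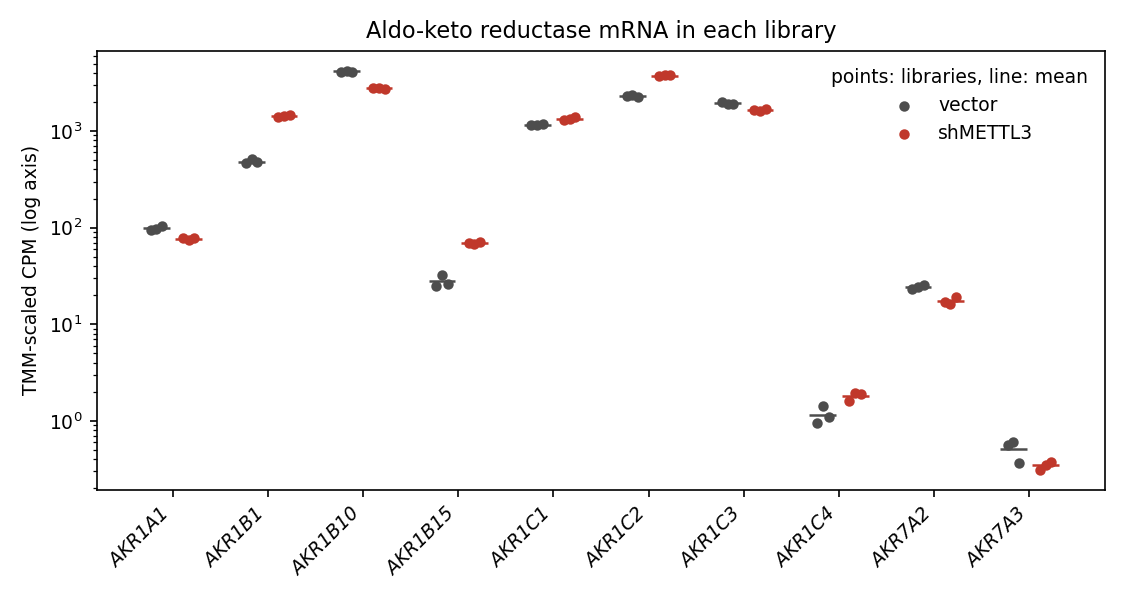
Normalised level of each aldo-keto reductase (TMM-scaled CPM, log axis) in the 3 vector and 3 shMETTL3 libraries, with points for libraries and lines for group means. The groups are separate for every member but AKR7A3, and the members span levels from 0.311 CPM for AKR7A3 to 4214 CPM for AKR1B10.

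The largest changes were in the AKR1B subfamily. AKR1B1, the aldose reductase, stood at 470, 508 and 473 CPM in vector replicates 1, 2 and 3, and at 1414, 1417 and 1467 CPM in shMETTL3 replicates 1, 2 and 3. Every shMETTL3 library lay far above every vector library, with tight groups on both sides. The mean rose from 484 ± 21.4 to 1433 ± 30.2 CPM (SD, n = 3 each), a log2 fold change of 1.57 ± 0.0509 (SE, adjusted p = 4.95e-20 in edgeR). By count, AKR1B1 moved from a rank of 225 to 260 among all rows to a rank of 57 to 58.

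AKR1B10, the retinaldehyde reductase best known as a marker of smoking-related lung cancer, went the other way. It had 73786, 70405 and 66646 counts in the vector libraries, against 54483, 55866 and 43218 counts in the shMETTL3 libraries, with no overlap between the groups. After scaling, these were 4137 ± 68.3 and 2777 ± 50.4 CPM (SD, n = 3 each), and the log2 fold change came to -0.58 ± 0.0479 (SE, adjusted p = 3.4e-11 in edgeR). Even so, AKR1B10 stayed between rank 16 and rank 20 of all rows in every library.

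AKR1B15, a less studied relative that lies next to AKR1B10, had 449, 536 and 430 counts in the vector libraries, against 1335, 1364 and 1127 counts in the shMETTL3 libraries. The lowest shMETTL3 count was thus more than double the highest vector count. Its level rose from 27.8 ± 3.75 to 69.4 ± 1.49 CPM (SD, n = 3 each), with a log2 fold change of 1.32 ± 0.0725 (SE, adjusted p = 4.9e-15 in edgeR). The ratio of AKR1B15 to AKR1B10 counts, a pair chosen after its values were seen, went from a mean of 0.00672 to one of 0.0250. AKR1B10P1, a pseudogene named for AKR1B10 and picked in the same way, was at -0.67 on the log2 scale (standard error 0.175, adjusted p = 0.00148 in edgeR), the direction of AKR1B10 and not of AKR1B15.

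Within the library, where scaling cancels, the ratio of AKR1B10 to AKR1B1 counts was 8.75, 8.29 and 8.63 in the vector libraries, against 1.996, 1.97 and 1.85 in the shMETTL3 libraries. The log2 ratio dropped by 2.14, which puts the ratio at 0.227 of its vector value (exact permutation test, two-sided, p = 0.1, the smallest that 3 libraries against 3 allow). Of the summed counts of AKR1B1, AKR1B10 and AKR1B15, AKR1B10 took 89.0% ± 0.326 in the vector libraries and 64.9% ± 0.881 in the shMETTL3 libraries (SD, n = 3 each). The share of AKR1B1 was 10.4% ± 0.257 and 33.5% ± 0.845 (SD, n = 3 each). The direction of the sum depended on the scaling. It was 0.437% ± 0.0153 of all counts in the vector libraries and 0.454% ± 0.00628 in the shMETTL3 libraries (SD, n = 3 each; exact permutation test, two-sided, p = 0.2). On the TMM scale it was lower in every shMETTL3 library, at 4279 ± 23.0 CPM against 4648 ± 92.8 CPM (SD, n = 3 each; exact permutation test, two-sided, p = 0.1, the smallest possible).

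The AKR1C genes also diverged. AKR1C2, which inactivates dihydrotestosterone, had levels of 2282, 2337 and 2248 CPM in the vector libraries, against 3694, 3790 and 3782 CPM in the shMETTL3 libraries. The groups were well apart and narrow. The log2 fold change came to 0.71 ± 0.048 (SE, adjusted p = 3.89e-13 in edgeR), and by count AKR1C2 was the 12th most abundant row in every shMETTL3 library, against ranks of 37 to 42 in the vector libraries.

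AKR1C1, which inactivates progesterone and is nearly identical to AKR1C2, rose far less. Its levels were 1165, 1146 and 1173 CPM in the vector libraries, against 1298, 1326 and 1400 CPM in the shMETTL3 libraries, with a log2 fold change of 0.21 ± 0.0489 (SE, adjusted p = 0.000532 in edgeR). Scaled by library size alone, AKR1C1 was at 0.38 (adjusted p = 1.9e-07 in edgeR). AKR1C3, which makes testosterone from androstenedione and reduces prostaglandin D, fell slightly. It stood at 1995, 1925 and 1908 CPM in the vector libraries, against 1664, 1628 and 1702 CPM in the shMETTL3 libraries, a log2 fold change of -0.22 ± 0.0483 (SE, adjusted p = 0.000219 in edgeR). This call depended on the scaling: by library size alone, which shifts the median gene by 0.17 on the log2 scale, AKR1C3 was at -0.048 (adjusted p = 0.387 in edgeR).

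AKR1C4, the liver enzyme of the group, was the lowest of the tested members, with 17, 24 and 18 counts in the vector libraries, against 31, 39 and 30 counts in the shMETTL3 libraries. The groups did not overlap, and the log2 fold change came to 0.64 ± 0.27 (SE, adjusted p = 0.0378 in edgeR). The call was lost with DESeq2 (adjusted p = 0.0995), without a filter on low counts (adjusted p = 0.0594 in edgeR), and in the edgeR fits without vector replicate 1, vector replicate 3, shMETTL3 replicate 2 or shMETTL3 replicate 3, where the adjusted p was 0.145, 0.0909, 0.117 and 0.0849. It was highest, at 0.208, in DESeq2 with the replicate number as a block. Exons of AKR1C4 overlap those of a gene annotated on the opposite strand, and whether the counting used strand is not given in the sources used here.

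**Figure D2:**
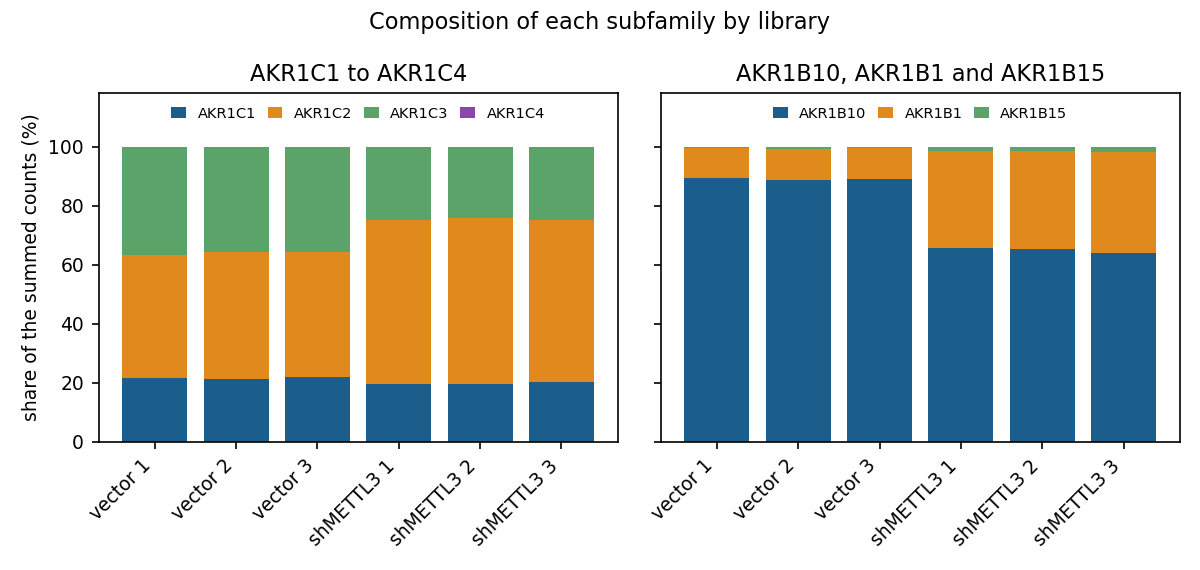
Share of each gene (in percent) in the summed counts of its subfamily, in stacked bars for each library, with AKR1C1 to AKR1C4 on the left and AKR1B10, AKR1B1 and AKR1B15 on the right. AKR1C2 takes 41.9% to 43.2% of the AKR1C counts in the vector libraries and 54.9% to 56.2% in the shMETTL3 libraries, and AKR1B1 takes a larger share of the AKR1B counts, and AKR1B10 a smaller one, in every shMETTL3 library.

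The ratios within the library show the same separation. The ratio of AKR1C1 to AKR1C2 was 0.510, 0.491 and 0.522 in the vector libraries, against 0.351, 0.350 and 0.370 in the shMETTL3 libraries, a change of -0.51 on the log2 scale. That of AKR1C1 to AKR1C3 was 0.584, 0.595 and 0.615 in the vector libraries, against 0.780, 0.814 and 0.822 in the shMETTL3 libraries, a change of 0.43. For both, the groups did not overlap (exact permutation test, two-sided, p = 0.1 for each, the smallest possible). The share of AKR1C3 in the summed AKR1C counts went from 36.0% ± 0.567 to 24.6% ± 0.436, and that of AKR1C1 from 21.5% ± 0.423 to 19.8% ± 0.439 (SD, n = 3 each). Summed into 1 row, which is unaffected by how reads are divided among these 4 genes, AKR1C1 to AKR1C4 had a log2 fold change of 0.33 ± 0.0476 (SE, adjusted p = 9.69e-07 in edgeR).

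The remaining members were lower or too low to test. AKR1A1, the aldehyde reductase, had levels of 95.4, 96.4 and 104 CPM in the vector libraries, against 77.9, 75.4 and 77.6 CPM in the shMETTL3 libraries. The log2 fold change came to -0.36 ± 0.054 (SE, adjusted p = 1.72e-06 in edgeR), and by library size alone it was -0.18 (adjusted p = 0.00418 in edgeR). The ratio of AKR1A1 to AKR1B1, which share the reduction of sugar aldehydes, was 0.204 ± 0.0151 in the vector libraries and 0.0537 ± 0.00121 in the shMETTL3 libraries (SD, n = 3 each; exact permutation test, two-sided, p = 0.1, the smallest possible).

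AKR7A2, which reduces succinic semialdehyde and aflatoxin dialdehyde, had 420, 407 and 420 counts in the vector libraries, against 326, 325 and 302 counts in the shMETTL3 libraries. All shMETTL3 libraries were lower, with a log2 fold change of -0.50 ± 0.0818 (SE, adjusted p = 5.52e-06 in edgeR), or -0.33 by library size alone (adjusted p = 0.00129 in edgeR). AKR7A3, its liver-enriched neighbour, had 10, 10 and 6 counts in the vector libraries, against 6, 7 and 6 counts in the shMETTL3 libraries. It did not pass the filter on low counts, and the groups overlapped. Without that filter its log2 fold change was -0.57, with an adjusted p = 0.466 in edgeR. Whether AKR7A3 differs between the groups cannot be read from so few counts. The ratio of AKR7A3 to AKR7A2 was 0.0209 ± 0.00573 and 0.0199 ± 0.00157 (SD, n = 3 each).

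**Figure D3:**
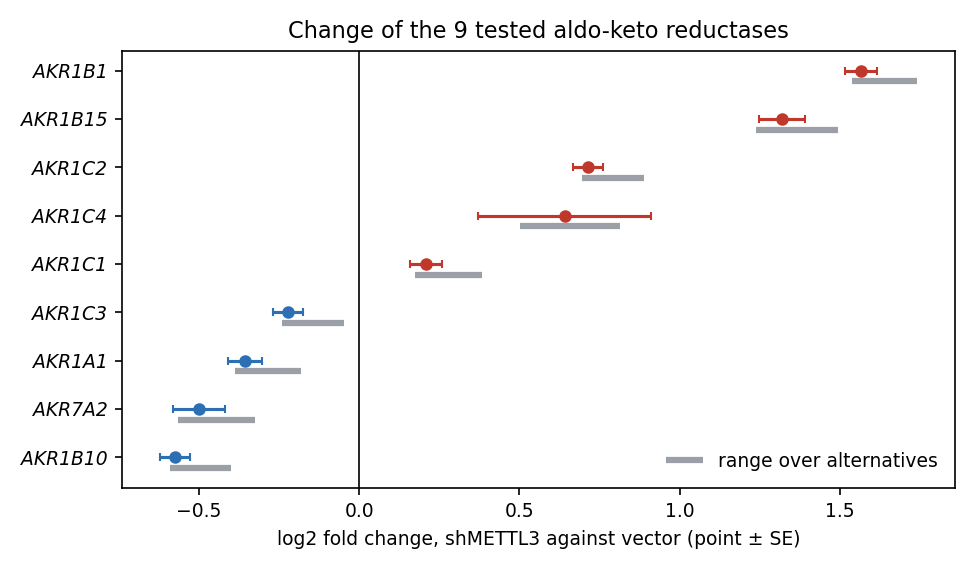
Log2 fold change of the 9 tested members (shMETTL3 against vector; points with standard errors, red for higher and blue for lower), with grey bars for the range over the processing alternatives other than summed paralogs. AKR1B1 and AKR1B15 lie above 1, and no bar crosses 0, although that of AKR1C3 comes to -0.048.

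Levels of different genes were compared per length, as the scaled CPM divided by the kilobases of annotated exon (RPKM, on the union of exons). In the vector libraries AKR1B10 was highest at 2333 ± 38.5 RPKM, followed by AKR1C3 at 497 ± 11.8, AKR1C2 at 376 ± 7.31, AKR1C1 at 132.5 ± 1.55 and AKR1B1 at 132.4 ± 5.87 RPKM (SD, n = 3 each). The levels of AKR1C1 and AKR1B1 did not differ beyond their spread. AKR1A1 at 31.6 ± 1.5, AKR7A2 at 13.8 ± 0.662 and AKR1B15 at 8.3 ± 1.12 RPKM were intermediate, and AKR1C4 at 0.607 ± 0.131 and AKR7A3 at 0.418 ± 0.101 RPKM were lowest (SD, n = 3 each).

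In the shMETTL3 libraries AKR1B10 was still first, at 1566 ± 28.4 RPKM, but AKR1C2, at 617 ± 8.7, had passed AKR1C3, at 426 ± 9.48 RPKM (SD, n = 3 each). AKR1B1, at 392 ± 8.26 RPKM, had passed AKR1C1, at 153 ± 5.98 RPKM, and AKR1B15, at 20.7 ± 0.445 RPKM, had passed AKR7A2, at 9.77 ± 0.825 RPKM (SD, n = 3 each). The order rests on the lengths used. With the longest transcript in place of all exons, AKR1C3, at 1185 ± 26.4, and AKR1C2, at 1168 ± 16.5 RPKM (SD, n = 3 each), did not differ beyond their spread in the shMETTL3 libraries, and AKR1B1 was above AKR1C1 in the vector libraries, at 251 against 178 RPKM. Together the 10 genes took 0.956% ± 0.029 of all counts in the vector libraries and 1.18% ± 0.0151 in the shMETTL3 libraries (SD, n = 3 each; exact permutation test, two-sided, p = 0.1, the smallest possible). On the TMM scale their sum was also higher, at 11140 ± 96.0 against 10170 ± 121 CPM (SD, n = 3 each).

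The neighbours of the members were called about as often as all tested genes, of which 66.6% were, so their counts are given as a description. Of the 10 tested genes nearest the AKR1B cluster, 5 on each side, 4 were higher and 3 lower (70.0% called), with log2 fold changes from -0.39 to 0.70 and a median of -0.12, or 0.049 by library size alone. AKR1B1 and AKR1B15 thus lay above, and AKR1B10 below, every one of these neighbours, under both scalings. Around the AKR1C cluster 2 were higher and 4 lower (60.0% called), with a median of -0.025, or 4 higher and 3 lower and a median of 0.15 by library size alone. On the TMM scale the log2 fold changes ran from -0.79 for AKR1E2, another aldo-keto reductase, to 1.32 for PITRM1-AS1, an antisense RNA that cannot be told from its partner without strand. Both were named after their values were seen, and all 4 AKR1C members lay within this range. Between AKR1C3 and AKR1C4 lies AKR1C8P, which had a log2 fold change of 0.57 ± 0.503 (SE, adjusted p = 0.314 in edgeR). Around AKR1A1 1 neighbour was higher and 6 lower (70.0% called), with a median of -0.28, or 2 higher and 4 lower and -0.11 by library size alone. Around AKR7A2 there were 3 in each direction (60.0% called), with a median of 0.07, or 5 higher and 2 lower and 0.245 by library size alone.

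**Figure D4:**
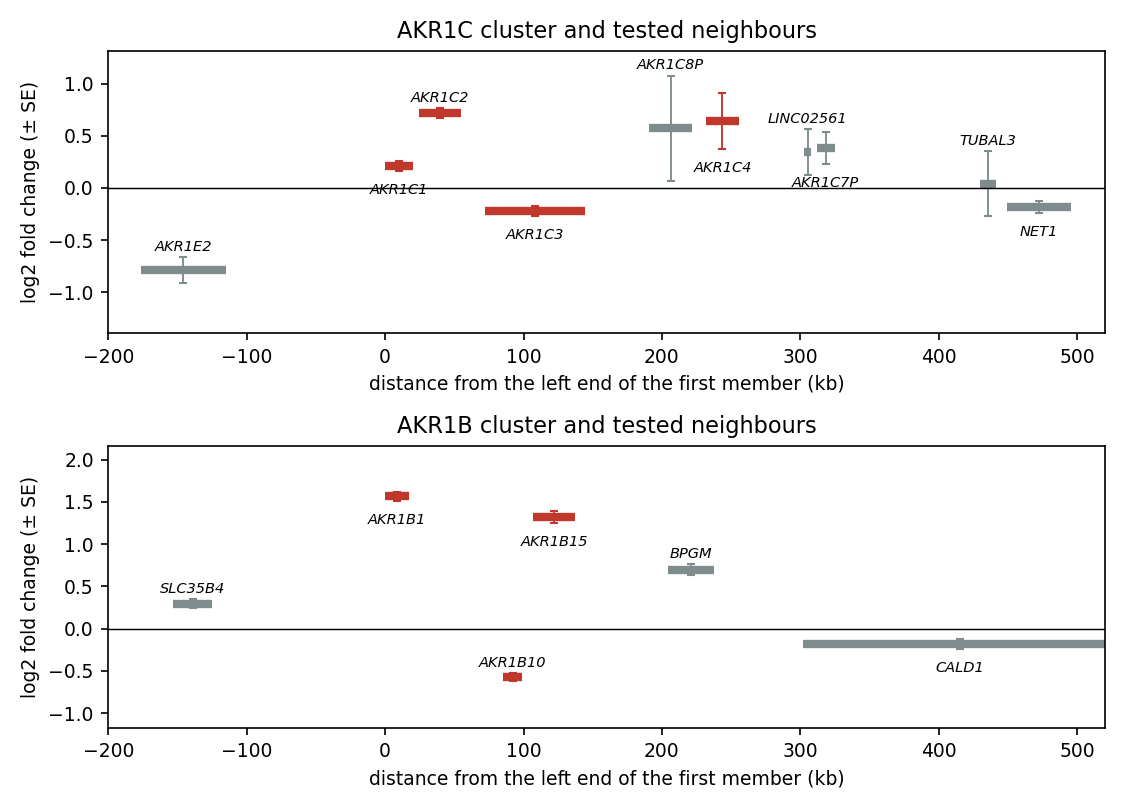
Log2 fold change (with standard error) of the tested genes along the AKR1C cluster (top) and the AKR1B cluster (bottom), against the distance in kb from the left end of the first member, with members in red, other genes in grey and bar widths for gene lengths. AKR1B10, at -0.58, lies between AKR1B1, at 1.57, and AKR1B15, at 1.32.

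Promoters were compared in RefSeq windows of GRCh38.p14, a different build from that of the counts that surround the annotated start. Windows were given for 8 of the 10 members, all but AKR1B10 and AKR1B15. Those of AKR1C1 and AKR1C2 were 93.5% identical, against 72.8% for AKR1C1 and AKR1C3 and 59.7% for AKR1C1 and AKR1C4. The 30 bases that end at the AKR1C1 start, and the stretch of each relative closest to them without gaps, are shown because these promoters belong to genes that changed by different amounts. They lie at chr10:4963385-4963414 (plus strand) for AKR1C1, chr10:5003862-5003891 (minus strand) for AKR1C2, chr10:5048752-5048781 (plus strand) for AKR1C3 and chr10:5196806-5196835 (plus strand) for AKR1C4, with capitals at the bases that differ from AKR1C1.
AKR1C1: gctcttatagcctgtgagggaggaagaaag
AKR1C2: gctcttatagcctgtgagggaggaagaaaC
AKR1C3: gAtTttataAcctgtgagggaAgaagaaag
AKR1C4: AAtAtAaATgccAgATGTTgCTgaagGaaA
AKR1C2 differs at 1 of the 30 bases and AKR1C3 at 4, whereas the closest stretch of AKR1C4 differs at 16.

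The core of the antioxidant response element, to which NRF2 binds, was searched as TGACNNNGC on both strands. It occurred in 13.3% of the 35116 promoter windows and, among the members, in AKR7A2 alone, with 3 matches. One of them begins 156 bases before the start, shown with the matched letters in capitals, and a second follows nearer the start.
AKR7A2: ccgggtcagcTGACCGCGCgccaccgcccc
AKR7A2: cgcgctgggcTGACCGGGCctggaggcgcc
The core of the xenobiotic response element, searched as GCGTG on both strands, occurred in 36.5% of all windows and in those of AKR1B1, AKR7A2 and AKR7A3. The windows are short and hold no distal elements.

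GGACT, the sequence most often methylated by the METTL3 complex, was counted in the canonical transcripts as a feature that the choice of genes did not use. The density was highest in AKR1C3 and AKR1C4, with 3 matches each and 2.53 and 2.52 per kb, above 96.3% and 96.2% of the transcripts compared. AKR1C1 also held 3 matches, but over a transcript of 6543 bases, against 1186 and 1192 for AKR1C3 and AKR1C4. AKR1B15 had 1.83 per kb. The other 7 members held between 0.459 per kb in AKR1C1 and 0.823 per kb in AKR7A3, below the median of 0.92 per kb over 13446 tested genes with a matched transcript. AKR1B1 and AKR1B10 held a single match each. Whether GGACT content has a part in the changes was not tested. The libraries hold no measure of m6A.

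The genes around the family were described from lists, which were also chosen with earlier results of these data known. The split by library size alone is given beside each where it differed. Of 12 regulators of NRF2, 11 changed, 5 higher and 6 lower, or 91.7% against the 66.6% of all tested genes, and their median log2 fold change was -0.16. The NRF2 gene NFE2L2 was at -0.25 on the log2 scale (adjusted p = 8.15e-05 in edgeR), from 138 to 116 CPM, and KEAP1, which targets NRF2 for degradation, was at 0.28 (adjusted p = 0.000227 in edgeR), from 49.7 to 60.3 CPM. By library size alone, 5 of the regulators were higher and 3 lower, with a median of 0.018. Under that scaling the call for NFE2L2 was lost, at -0.076 (adjusted p = 0.193 in edgeR), and KEAP1 was at 0.45.

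Of 32 NRF2 targets outside the family, 10 were higher and 15 lower, 78.1% in all, with a median log2 fold change of -0.17. By library size alone the split was 12 higher and 11 lower, with a median of 0.010. The quinone reductase NQO1 fell from 1783 to 1318 CPM (log2 fold change -0.44, adjusted p = 1.12e-08 in edgeR), and the thioredoxin reductase TXNRD1 had a log2 fold change of -0.30. By library size alone these were -0.26 for NQO1 and -0.13 for TXNRD1 (adjusted p = 4.14e-05 and 0.0332 in edgeR). GCLM, the modifier subunit of glutathione synthesis, rose from 89.2 to 134 CPM, a log2 fold change of 0.59 (adjusted p = 4.1e-10 in edgeR). Among well expressed targets, HMOX1 (haem oxygenase), at 1.31, and the glutathione peroxidase GPX2, at -1.21, changed by at least 1 on the log2 scale. The summed level of the 32 genes was 20300 to 21500 CPM in the vector libraries, against 16300 to 16600 CPM in the shMETTL3 libraries.

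Enzymes that share substrates with the family were listed next, against the same 66.6% of all tested genes. Of 24 short-chain carbonyl reductases and dehydrogenases, which reduce many of the same carbonyls with another protein fold, 5 were higher and 11 lower (66.7%; median -0.15), or 7 higher and 8 lower by library size alone (median 0.021). Of the well expressed ones RDH13 fell most, by 1.22 on the log2 scale. Of 17 tested genes of aldehyde and quinone detoxification 6 were higher and 9 lower (88.2%; median -0.15), or 6 in each direction by library size alone (median 0.019), and the glutathione transferase GSTM3 rose by 2.76 from a low level of 1.23 CPM.

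Of 31 tested genes in the polyol, prostaglandin, steroid and retinoid pathways, 12 were higher and 11 lower (74.2%; median -0.008), or 15 higher and 10 lower by library size alone (median 0.167). In the polyol pathway SORD, the enzyme that follows AKR1B1, was at -0.43 on the log2 scale (adjusted p = 5.39e-05 in edgeR), or -0.25 by library size alone, and was named after its values were seen. The prostaglandin genes went both ways. The synthase PTGES was at 2.14, the dehydrogenase HPGD at 1.95 and the cyclooxygenase PTGS2 at 1.28 on the log2 scale, whereas the synthase PTGES2, named after its values were seen, fell by 0.47, or by 0.29 with library size alone (adjusted p = 0.000316 in edgeR). ALDH1A3, which oxidises the retinaldehyde that AKR1B10 reduces, rose from 1.14 to 15.8 CPM (log2 fold change 3.79). ALDH1A1, far more abundant, with the same activity and named after its values were seen, fell from 14520 to 9450 CPM (log2 fold change -0.62, adjusted p = 4.73e-11 in edgeR). The steroid sulfatase STS rose by 1.17, and HSD17B7, an enzyme of oestrogen and cholesterol synthesis, fell by 1.40 on the log2 scale. Each of the genes named here for a change of at least 1 had no overlap between groups, as had 69.4% of all tested genes. Being named for size and adjusted p made this close to certain, so it adds no evidence.

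Of 5 tested genes elsewhere in the superfamily, 2 were higher and 1 lower, or 60% called against 66.6% of all tested genes. These were KCNAB2 (log2 fold change 0.98) and KCNAB3 (1.77), potassium channel subunits with an aldo-keto reductase fold, and AKR1E2 (-0.79), all named after their values were seen. KCNAB3 had 7, 7 and 6 counts in the vector libraries, against 25, 32 and 18 in the shMETTL3 libraries. It passed the filter on low counts only through the shMETTL3 libraries, so its direction was close to fixed by the filter. The lists share some genes, so their counts cannot be added.

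**Figure D5:**
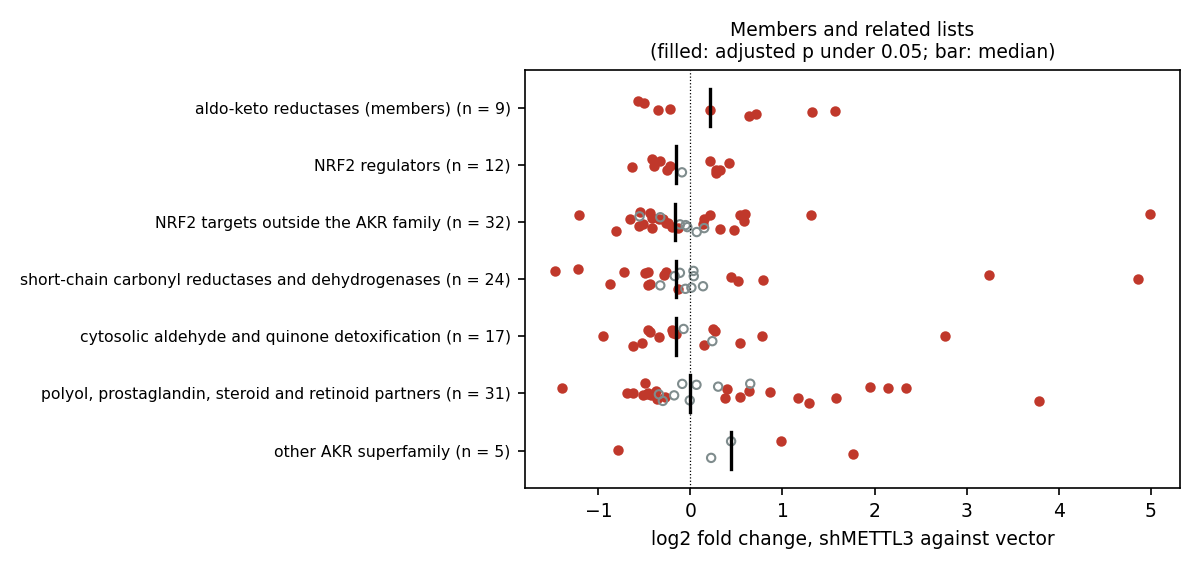
Log2 fold changes (shMETTL3 against vector) of the 9 tested members and of the tested genes in the 6 related lists, with filled points for an adjusted p under 0.05, open points for the others and black bars for medians. Every list holds genes on both sides of 0, and the median of the members, at 0.21, lies on the other side of 0 from those of the NRF2 regulators, at -0.16, and the NRF2 targets, at -0.17, whereas by library size alone these medians are 0.38, 0.018 and 0.010, all above 0.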

How the data were processed

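RNA-seq libraries of A549 cells (3 vector, 3 shMETTL3) were grouped and numbered by sample title. The authors deposited whole-number counts per gene symbol on hg19, without normalization. The submitters' processing notes name cutadapt 3.0, HISAT2 2.2.1, SAMtools 1.13 and HTSeq 0.13.5, whereas the paper's methods name other HISAT2 and htseq versions. Annotation, strand setting and handling of multi-mapping reads are not given in the sources used here, and affect the close paralogs most.

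The main test was edgeR 4.0.16 in R 4.3.3 (filterByExpr, TMM factors, then glmQLFit and glmQLFTest between the groups), with Benjamini-Hochberg adjustment over 15125 genes and a threshold of 0.05. Standard errors were derived from the F statistic and the unshrunken coefficient. Ratios were tested by exact permutation on log2 counts after adding 0.5. The members and lists were chosen with earlier results of these data known. Named list genes had an adjusted p under 0.05, an absolute log2 fold change of at least 1 and an average log2 CPM of at least 2, at most 6 per list, plus NFE2L2, KEAP1, NQO1, GCLM and TXNRD1, and a further gene that is not reported here. Cell type markers were named without regard to this rule. Neighbours were named only within a cluster, other exceptions being marked.

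Coordinates, exons and transcripts came from GENCODE v44 mapped to GRCh37, and 92.1% of tested genes had a position by current or older symbol. Coding sequences were compared in place of proteins. The functions were tested on simulated counts. Alternatives were other scalings and filters, DESeq2 1.42.0, limma-voom (limma 3.58.1), a replicate block, each library left out, other thresholds, and paralogs summed. Libraries of a group differed by more than sampling noise (chi-square per degree of freedom 2.79 to 7.5, and 79.8 to 98.8 across groups).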

Additional observations from a re-analysis of the deposited data

How the results depend on the processing

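METTL3 and all tested members except AKR1C3 and AKR1C4 held their direction with an adjusted p below 0.05 in each scaling, filter and test tried and with each library left out. With any 1 library left out, 8 to 9 members were changed, and 8 with DESeq2, where AKR1C4 was lost. Scaling by library size alone raised the share of higher genes among all changed genes from 50.6% to 65.8% and gave 3 lower NRF2 regulators. It also moved the medians of 5 lists from below 0 to above it, and turned the NRF2 targets from 10 higher and 15 lower to 12 higher and 11 lower. These medians, the values of named list genes and neighbours by library size alone and the TMM-scaled sums of members were added after seeing the data. With at least 10 counts in every library, 1 other AKR superfamily gene and 3 short-chain reductases were higher, because fewer genes were tested, and DESeq2 with a replicate block gave 7 lower short-chain reductases (the cause was not tested).

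A minimum absolute log2 fold change of 1 removes small changes by construction. It left 2 members (2 higher, 0 lower) and 2668 of all genes (1545 higher, 1123 lower). By list it left 1 of the other superfamily (1 higher, 0 lower), 0 NRF2 regulators (0 higher, 0 lower), 3 NRF2 targets (2 higher, 1 lower), 4 short-chain reductases (2 higher, 2 lower), 8 polyol, prostaglandin, steroid and retinoid genes (7 higher, 1 lower) and 1 detoxification gene (1 higher, 0 lower), all from edgeR.

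Summing AKR1C1 to AKR1C4 gave 0.33, where AKR1C2 alone was at 0.71 and AKR1C3 alone at -0.22. No single gene held most of that sum in the vector libraries, where AKR1C2 took 42.4% and AKR1C3 36.0%. Summing AKR1B10 and AKR1B15 gave -0.55 where AKR1B15 alone was at 1.32, because the far more abundant AKR1B10 sets that sum. The log2 change of the AKR7A3 to AKR7A2 ratio was -0.0043, 0.13 with 5 added to each count, and from -0.24 to 0.13 with each library left out, so that 6 to 10 counts of AKR7A3 give it no direction.

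Whether same-numbered libraries were prepared as pairs is not given in the sources used here. Deviations of same-numbered libraries correlated at 0.147, -0.0825 and 0.0702 over 11077 genes, against -0.192 to 0.117 for other pairs. With 3 libraries per group these values cannot decide it. With a replicate block in edgeR, 10111 of all genes and 9 members were changed, and with the block in DESeq2 8148 and 8, where AKR1C4 was lost (adjusted p = 0.208).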
